A study of Rattus norvegicus with 12 samples.

Results

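The fatty acid elongases and desaturases of rat epididymal adipocytes were examined as a set of 10 genes, Elovl1, Elovl2, Elovl4, Elovl5, Elovl6, Elovl7, Fads1, Fads2, Hsd17b12 and Scd1, chosen by the gene name that the array files give each probe. They are 10 of the 26484 genes named for the array and carry 13 of its 30367 non-control probes, with 2 probes each for Elovl1, Elovl2 and Elovl6. The adipocytes came from 6 male Fisher 344 rats after 35 days of chronic unpredictable stress (CUS), with 2 stressors per day in a computer-randomized sequence that included overnight food and water deprivation, swimming, rotation, altered light and crowding, and from 6 male Fisher 344 control rats that were only handled every 2 days. Epididymal fat is a visceral depot of male rodents. The labels give neither age nor pooling, and each array was taken as 1 rat. The comparison asks which of these enzymes differ in mRNA level in visceral fat cells at the end of the stress period.

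Fatty acids are lengthened in the endoplasmic reticulum by a cycle of condensation with malonyl-CoA, reduction, dehydration and a further reduction. The ELOVL enzymes catalyse the condensation and set which chains are lengthened, and Hsd17b12 encodes the ketoacyl-CoA reductase that follows. The desaturases place double bonds, with stearoyl-CoA desaturase (Scd1) making monounsaturated chains. Fads2 and Fads1 act in turn, with elongation between them, in the polyunsaturated pathway that starts from dietary linoleic and linolenic acid. Adipocytes are rich in Scd1 and Elovl6, which turn newly made palmitate into the stearate and oleate of stored triglyceride.

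The array reads each gene through a 60-base probe, and 7 of the 13 probes are shown to let the family members be set side by side, written 5′ to 3′ in the sense of the transcript. Capitals mark the 27 letters that match GANACNNTNTTNNTNNTNCTNNGGAAN, a pattern read off these probes that occurs in 3 of the 30367 probes, those of Elovl2, Elovl4 and Elovl6.
Elovl6: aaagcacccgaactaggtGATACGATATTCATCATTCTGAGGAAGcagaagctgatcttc
Elovl2: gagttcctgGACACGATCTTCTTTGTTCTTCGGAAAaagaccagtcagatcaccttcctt
Elovl4: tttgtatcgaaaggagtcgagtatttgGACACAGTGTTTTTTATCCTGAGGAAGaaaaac
Elovl1: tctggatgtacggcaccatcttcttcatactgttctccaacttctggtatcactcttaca
Elovl5: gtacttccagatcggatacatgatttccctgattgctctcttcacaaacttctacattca
Hsd17b12: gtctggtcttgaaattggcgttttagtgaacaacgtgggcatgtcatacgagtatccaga
Fads2: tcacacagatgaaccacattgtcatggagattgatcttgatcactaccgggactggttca
Within the 27 letters, Elovl6 shares 19 with Elovl2 and 19 with Elovl4, and Elovl2 shares 18 with Elovl4. The 3 probes gave unlike signals, with Elovl6 well above background on 6 CUS and 5 control arrays, Elovl4 on 0 CUS arrays and 1 control array, and Elovl2 on 0 of both. The Elovl6 probe shown lies at chr2:227047594-227052367 of build rn4 and the Hsd17b12 probe at chr3:78470644-78487256 (minus strand). Their 60 bases thus cover 4774 and 16613 bases of genome, so both cross at least 1 intron. The others each lie within 1 unbroken stretch.

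The arrays differed in ways that bear on every value below. The CUS arrays were all on 1 slide and the control arrays all on another, so slide and treatment cannot be told apart. The 75th percentile of intensity, by which each array was scaled, was 541 to 627 in CUS arrays and 230 to 399.7 in control arrays, and 64.7 to 67.0% of probes in CUS arrays and 60.4 to 67.3% in control arrays were well above background. Control replicate 3 stood furthest from the rest, with a highest correlation to any other array of 0.973, against 0.986 to 0.995 for the other 11 arrays. Of 10 adipocyte markers, all tested, 2 were higher and 3 lower in CUS adipocytes, and their summed linear level was 1460 to 1810 in CUS arrays and 1428 to 2792 in control arrays, with the highest value in control replicate 3. Red blood cell markers were higher for 7 of 7 tested (2018 to 2811 in CUS arrays, 52.7 to 151 in control arrays), mast cell markers for 8 of 9 (2.24 to 5.84 in CUS arrays, 0.35 to 0.53 in control arrays), mesothelial markers for 5 of 7 (10.8 to 17.6 in CUS arrays, 2.60 to 14.0 in control arrays) and macrophage markers for 4 of 9 (44.5 to 97.3 in CUS arrays, 25.8 to 53.4 in control arrays, with Marco not above background). Smooth muscle markers were lower for 5 and higher for 1 (Cspg4) of 8. Endothelial markers were lower for 5 of 10, fibroblast markers were higher for 1 and lower for 2 of 8, neutrophil markers were higher for 2 and lower for 1 of 3 tested, and epididymal epithelium markers were lower for 1 of 3 tested (summed level 0.29 to 0.77 in CUS arrays, 0.40 to 7.84 in control arrays). Of the lymphocyte list, Cd3d (log2 mean -1.08 in CUS and -1.05 in control arrays) and Nkg7 (-2.29 and -2.34) were well above background on all 12 arrays. Neither passed (adjusted P = 0.85 and 0.90 by limma). Klrd1 was above background on 1 array, and Cd3e, Cd2, Cd8a and Ms4a1 on no array. The part of all these cell types in the results was not tested, and in such bulk RNA fewer cells of a type and less RNA per cell cannot be told apart.

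Stress was accompanied by higher signals for the shared reductase Hsd17b12, the desaturase Fads1 and the elongases Elovl5, Elovl1 and Elovl6, where Elovl1 and Elovl6 were higher at 1 of 2 probes each and the Elovl6 call turned to lower with normexp background correction, while Scd1 and Fads2 did not pass the test. Probes entered the test when 6 or more of the 12 arrays read them well above background, which left 9 of the 13 probes and 7 of the 10 genes. Of these 9, 5 were higher in CUS adipocytes, 0 lower, and 4 missed an adjusted P under 0.05 (limma, Benjamini-Hochberg over all 19721 tested probes). The background was 24.7% of all tested probes higher and 25.4% lower, or 50.1% called. The groups did not overlap for 3 of the 9, all with CUS above control, where this held for 10.6% of all tested probes (21.8% in either direction), and 2 of the 9 were at least 2-fold higher, against 3.4% of all. The median log2 difference over the 9 probes was 0.49, beside -0.02 over all tested probes.

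**Figure D1:**
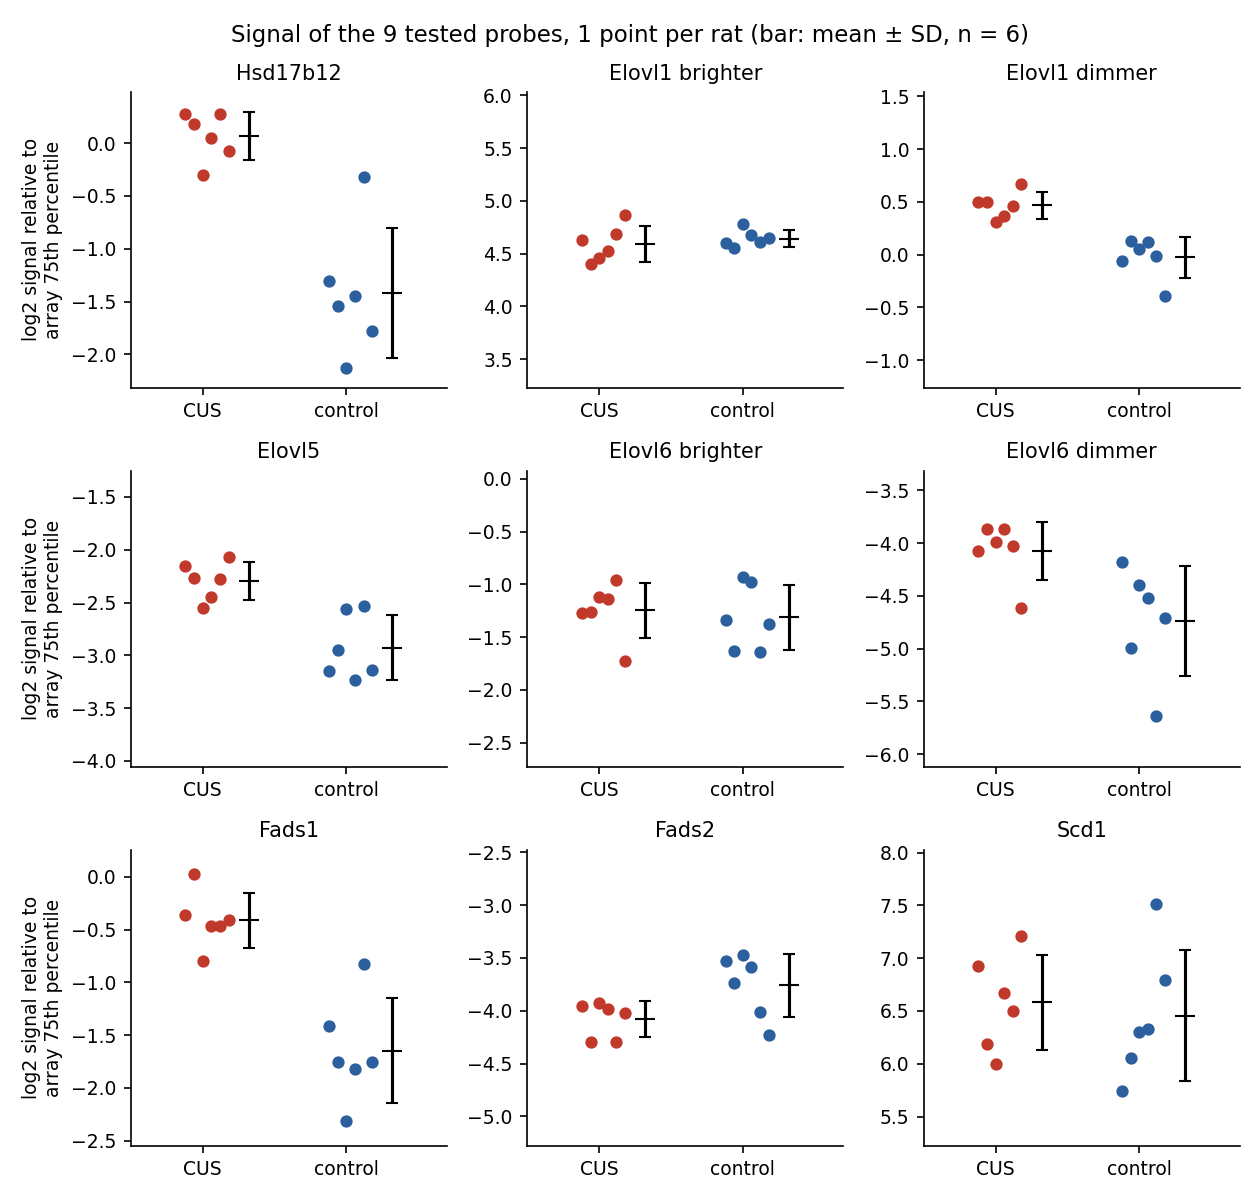
Log2 signal relative to the array's 75th percentile for the 9 tested probes, CUS (red) left of control (blue), with mean ± SD (n = 6 each). There is 1 point per array, taken as 1 rat, and every panel has its own y axis. All CUS points lie above all control points for Hsd17b12, Fads1 and the dimmer Elovl1 probe, and the groups overlap in the other 6 panels.

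Hsd17b12 showed the highest difference of the set. Its log2 signal, relative to each array's 75th percentile as are all levels here, was -0.30, 0.12 and 0.28 (lowest, median, highest) in CUS adipocytes, against -2.13, -1.50 and -0.32 in control adipocytes. The groups came close to each other but did not overlap, with CUS replicate 1 the lowest of the CUS arrays and control replicate 3 well above the other controls. The mean was 0.07 ± 0.23 in CUS adipocytes and -1.42 ± 0.61 in control adipocytes (SD, n = 6 each), a log2 difference of 1.49 (SE 0.24, adjusted P = 0.00045) or 2.81-fold. This difference exceeded that of 98.9% of tested probes. Hsd17b12 is the only ketoacyl-CoA reductase assigned to the elongation cycle in this set, so every elongase shares it.

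Fads1, the desaturase that forms arachidonic and eicosapentaenoic acid, was the other gene at more than 2-fold. Its log2 signal was -0.80, -0.44 and 0.02 in CUS adipocytes, against -2.32, -1.75 and -0.83 in control adipocytes (lowest, median, highest; probe at chr1:212684643-212684702, rn4). Again no control reached the CUS values, and CUS replicate 1 and control replicate 3 came closest to each other. The means were -0.41 ± 0.26 in CUS adipocytes and -1.65 ± 0.50 in control adipocytes (SD, n = 6 each), with a log2 difference of 1.23 (SE 0.21, adjusted P = 0.00061) or 2.35-fold, above 98.2% of tested probes.

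Fads2, which acts before Fads1 in the same pathway, did not pass the test. The Fads2 signal was -4.29, -4.00 and -3.93 in CUS adipocytes and -4.23, -3.66 and -3.47 in control adipocytes (chr1:212514714-212514773, rn4, minus strand). The CUS values thus sat toward the lower end of the control range, with means of -4.08 ± 0.17 in CUS adipocytes and -3.76 ± 0.30 in control adipocytes (SD, n = 6 each). The log2 difference of -0.32 (SE 0.14) had an unadjusted P of 0.038 and an adjusted P of 0.070 by limma. It passed without control replicate 3 (-0.37, adjusted P = 0.037) or without control replicate 6 (-0.41, adjusted P = 0.016), and likewise with array weights (-0.44, adjusted P = 0.0073) and with normexp (-0.54, adjusted P = 6.0e-05). The spot is dim, at intensities of 27.8 to 37.2 in CUS arrays and 14.3 to 34.7 in control arrays, all under the normexp offset of 50. The sign of the difference turned under quantile normalization (0.03), scaling on spike-ins (0.53) and no scaling, where it passed as higher (0.46, adjusted P = 0.047). Within an array, where a constant taken from all probes cancels, Fads1 minus Fads2 averaged 3.67 in CUS adipocytes (3.13 to 4.32) and 2.11 in control adipocytes (1.16 to 3.18), with 5 of 6 CUS arrays above all controls. This change of 1.55 is a description and was not tested as a contrast of its own, so the difference in response between Fads1 and Fads2 rests on these values alone. In the reference annotation Fads3, Fads2 and Fads1 lie in that order on chromosome 1.

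Scd1 was bright on all 12 arrays and did not pass the test. In the current annotation this gene, named Scd1 in the files, carries the symbol Scd. Its log2 signal was 6.00, 6.59 and 7.21 in CUS adipocytes and 5.74, 6.32 and 7.51 in control adipocytes (chr1:249458860-249458919, rn4, minus strand), so the groups overlapped, and the highest control was above all CUS arrays. The means were 6.58 ± 0.45 in CUS adipocytes and 6.45 ± 0.62 in control adipocytes (SD, n = 6 each), a log2 difference of 0.13 (SE 0.29, adjusted P = 0.73). The spot was saturated on 0 arrays. With its standard error, a moderate change in either direction was not detectable for Scd1 with 6 rats per group. Within arrays, Fads1 minus Scd1 was higher by 1.11 and Hsd17b12 minus Scd1 by 1.36 in CUS than in control adipocytes (5 of 6 CUS arrays above all controls for Hsd17b12 and 4 of 6 for Fads1, with no test), while Hsd17b12 minus Fads1 differed by 0.26.

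Among the elongases, Elovl5, which lengthens the polyunsaturated chains between the Fads2 and Fads1 steps, was higher in CUS adipocytes. Its signal was -2.55, -2.27 and -2.07 in CUS adipocytes, against -3.23, -3.05 and -2.53 in control adipocytes (chr8:82947178-82947237, rn4). Of the 6 CUS arrays, 5 lay above all controls and CUS replicate 1 just below the highest, control replicate 3. The log2 difference was 0.63 (SE 0.14, adjusted P = 0.0031) or 1.55-fold, above 89.8% of tested probes. With normexp background correction it was 0.10 (adjusted P = 0.39), where the offset of 50 stands beside intensities of 92.7 to 133 in CUS arrays and 39.8 to 51.3 in control arrays.

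Elovl1, which lengthens saturated and monounsaturated very long chains, gave unlike values at its 2 probes. The dimmer probe (chr5:138912013-138912072, rn4) read 0.31, 0.48 and 0.67 in CUS adipocytes, against -0.39, 0.02 and 0.13 in control adipocytes, with no overlap. Its log2 difference was 0.49 (SE 0.10, adjusted P = 0.0020) or 1.41-fold. The brighter probe, which lies further toward the 3′ end (chr5:138912575-138912634), read 4.40, 4.58 and 4.86 in CUS adipocytes and 4.55, 4.63 and 4.78 in control adipocytes, with a log2 difference of -0.05 (SE 0.09, adjusted P = 0.67). On this probe the CUS arrays spread on both sides of the controls.

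Elovl6, the elongase of palmitate, showed the same kind of split. The probe that crosses an intron read -4.62, -4.01 and -3.87 in CUS adipocytes, against -5.64, -4.62 and -4.18 in control adipocytes, and 5 of 6 CUS arrays were above all controls. The log2 difference was 0.67 (SE 0.22, adjusted P = 0.025) or 1.59-fold, whereas with normexp this probe passed as lower (-0.31, adjusted P = 0.0025). This is a dim spot, with intensities of 22.9 to 42.8 in CUS arrays and 4.61 to 22.1 in control arrays, well above background on 6 CUS and 5 control arrays, and the call was lost without CUS replicate 4 (adjusted P = 0.053), CUS replicate 5 (0.052) or control replicate 4 (0.055). The brighter Elovl6 probe (chr2:227054046-227054105), further toward the 3′ end, read -1.73, -1.20 and -0.96 in CUS adipocytes and -1.64, -1.35 and -0.93 in control adipocytes, a log2 difference of 0.07 (SE 0.16, adjusted P = 0.74).

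The difference between the 2 probes of a gene was tested directly on the within-array log2 difference, which a constant taken from all probes of an array cannot move, though quantile normalization can. For Elovl1, the brighter minus the dimmer probe was lower by 0.54 in CUS than in control adipocytes (log2 difference -0.54, SE 0.10, adjusted P = 0.0012 by limma over 2549 probe pairs), with no overlap between the groups. For Elovl6 it was lower by 0.60 (log2 difference -0.60, SE 0.16, adjusted P = 0.010), with overlapping groups. Such differences between probes of 1 gene were common, since 38.1% of all pairs passed. Under normexp the Elovl1 pair still passed (-0.39, adjusted P = 0.0024) and the Elovl6 pair had the opposite sign and did not (0.25, adjusted P = 0.073).

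**Figure D2:**
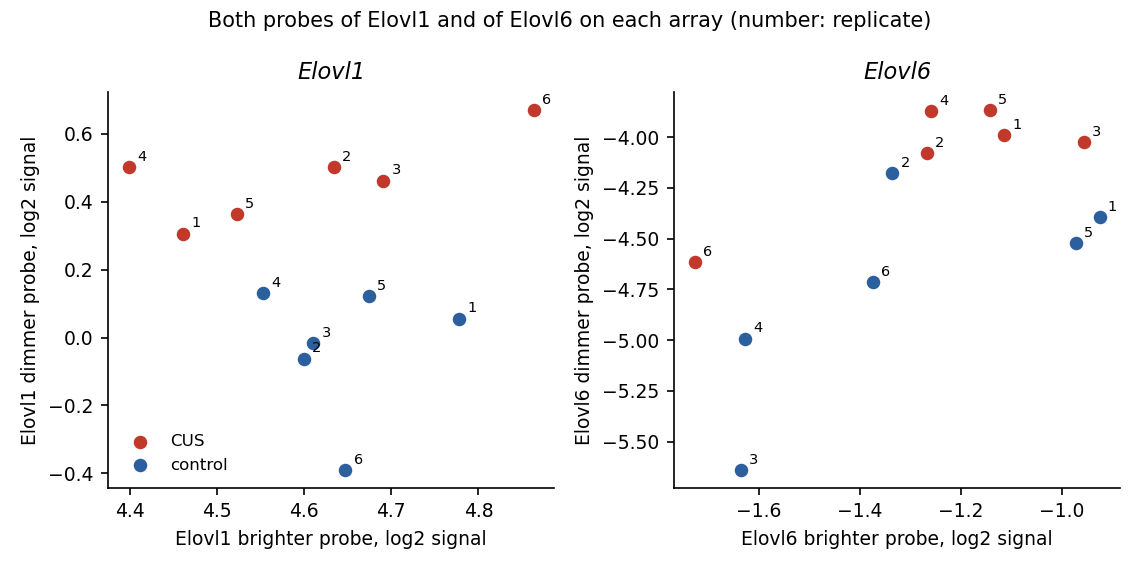
Log2 signal of the dimmer probe (y axis) against the brighter probe (x axis), each relative to the array's 75th percentile, for Elovl1 (left) and Elovl6 (right), 1 point per array labelled with its replicate number, CUS red and control blue. For Elovl1 all CUS points lie above the control points on the y axis while both groups span the same part of the x axis, and for Elovl6 5 of 6 CUS points lie above all controls on the y axis.

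Elovl2, Elovl4 and Elovl7 were not measured above background and were not tested. Elovl2 and Elovl4 are known for the longest polyunsaturated chains of liver and retina, and Elovl7 is a further elongase of long chains. The 2 Elovl2 probes and the Elovl7 probe were well above background on 0 of 12 arrays, and the Elovl4 probe on 0 CUS arrays and 1 control array, replicate 5. Their intensities were between 2.23 and 9.54 on all arrays. No fold is given for them.

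**Figure D3:**
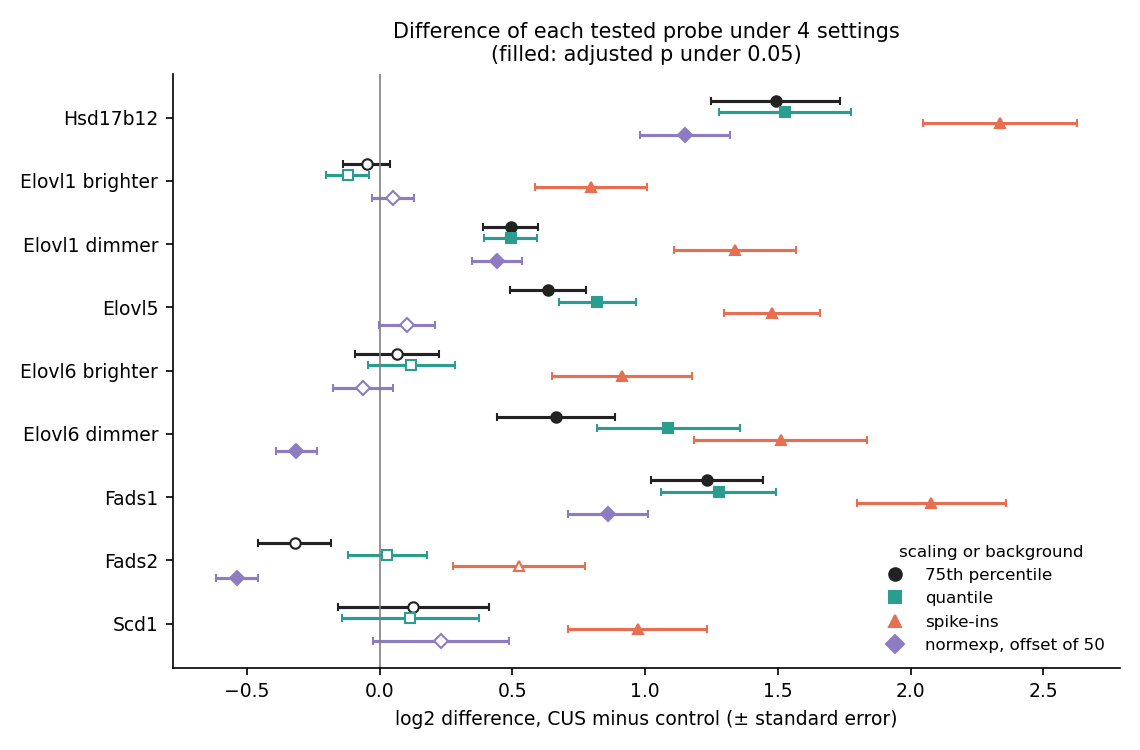
Log2 difference, CUS minus control, with its standard error for the 9 tested probes under 4 settings of scaling or background correction; filled symbols passed at an adjusted P under 0.05. Hsd17b12, Fads1 and the dimmer Elovl1 probe stay right of 0 and filled in every setting drawn, and scaling on spike-ins moves each probe to the right by the same amount.

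Scaling on spike-ins or no scaling moved all probes of a comparison by the same amount, and quantile normalization and normexp moved each by its own. The median difference of all tested probes was -0.02 with the 75th percentile, 0.04 with quantile normalization, -0.18 with normexp, 0.83 with spike-ins and 0.76 with no scaling. Of all calls, 50.6% were of lower probes with the 75th percentile, 41.4% with quantile normalization, 66.6% with normexp, 3.47% with spike-ins and 5.18% with no scaling. Relative to the median of all tested probes, Hsd17b12 was higher by 1.51 with the 75th percentile and 1.49 with quantile normalization, and Fads1 by 1.25 and 1.24. Fads2 stood at -0.30 with the 75th percentile and at -0.0083 with quantile normalization, and the difference of the dimmer Elovl6 probe was 0.67 and 1.09 before the median was taken off. The brighter Elovl1 probe, the brighter Elovl6 probe and Scd1 passed as higher only with spike-ins (0.80, 0.91 and 0.97) or no scaling (0.73, 0.84 and 0.90), where the median of all probes lay near the same level.

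Genes around these enzymes were mostly higher or did not pass. Of 59 listed genes, 56 had a probe and 48 were tested at their brightest probe, of which 29 were higher and 2 lower and 17 did not pass, with a median log2 difference of 0.41, where 24.2% of all genes tested in this way were higher and 25.8% lower. With spike-ins or no scaling, 44 of the 48 were higher and 0 were lower. Of all 19721 tested probes, 12995 were higher with spike-ins and 13387 with no scaling. The lower calls of Hacd1 and Cers4 given here thus hold relative to the other probes of an array. In the rest of the elongation cycle and the desaturase families, 4 of 8 were higher, 1 was lower and 3 did not pass (median 0.14). The enoyl-CoA reductase Tecr read 3.68, 4.02 and 4.10 in CUS adipocytes, against 3.08, 3.38 and 3.95 in control adipocytes, a log2 difference of 0.53 (SE 0.14, adjusted P = 0.006). The dehydratases were unlike each other, with Hacd4 higher (0.73, adjusted P = 0.001, no overlap), Hacd1 lower (-0.27, adjusted P = 0.021, no overlap) and Hacd3 at -0.05 (adjusted P = 0.64). Of the desaturase relatives, Fads3 was higher (0.64, adjusted P = 0.016) and so was Degs1, the dihydroceramide desaturase (0.34, adjusted P = 0.020). The stearoyl-CoA desaturases beside Scd1 did not pass, with Scd2 at -0.63 (adjusted P = 0.12; named Scd in the files) and Scd4 at -0.35 (adjusted P = 0.30). Elovl3, Fads6, Tecrl and Degs2 were not tested, and Scd3 and Hacd2 were not analysed here.

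Of the listed genes of malonyl-CoA metabolism, reducing power and electron transfer, 9 of 12 tested were higher, none was lower and 3 did not pass (median 0.64). Fasn, fatty acid synthase, which makes the palmitate that Elovl6 lengthens, read 3.90, 4.48 and 4.95 in CUS adipocytes, against 2.64, 3.12 and 3.99 in control adipocytes, a log2 difference of 1.23 (SE 0.23, adjusted P = 0.001) or 2.35-fold. The groups overlapped only at their ends. Slc25a1, the mitochondrial citrate carrier, was higher by 1.32 on the log2 scale with no overlap (2.49-fold), and Me1, the malic enzyme that yields NADPH, by 0.98 at its brighter probe and 1.05 at the other. Mlycd, the malonyl-CoA decarboxylase that breaks malonyl-CoA down, is among the 9 (0.72, adjusted P = 0.0015). So is Acacb, which like Acaca encodes an acetyl-CoA carboxylase that forms malonyl-CoA (0.79, adjusted P = 0.018). The electron carriers Cyb5a (0.56) and Cyb5b (0.78) and the reductases Cyb5r3 (0.44) and Cyb5r4 (0.31) were higher as well, while Cyb5r1 at its brighter probe (-0.24, adjusted P = 0.36; its other probe was higher by 0.60, adjusted P = 0.0032), Acly (0.09, adjusted P = 0.65) and Acaca (0.27, adjusted P = 0.42) did not pass.

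Of the transcription factors of the pathway and their regulators, 6 of 10 tested were higher, 0 lower and 4 not passed (median 0.42). Insig1, which holds the SREBP complex in the endoplasmic reticulum and is itself an SREBP target, was higher by 1.00 on the log2 scale (SE 0.25, adjusted P = 0.006), Insig2 by 0.65 at its brighter probe and 1.00 at the other, and Thrsp, a lipogenic nuclear protein, by 0.96. Pparg, the adipocyte master regulator, was higher by 0.52 (adjusted P = 0.002) and Nr1h3, which encodes a liver X receptor, by 0.33. Mlx was higher by 0.55 with no overlap at its brighter probe and by 0.28 at the other (adjusted P = 0.021). Srebf2 (-0.13, adjusted P = 0.36), Mlxipl, the carbohydrate response factor (-0.31, adjusted P = 0.12), Scap (-0.01) and Nr1h2 (-0.09) did not pass. Srebf1 was not analysed here, and Ppara was not tested.

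Among genes that use the products, 10 of 18 tested were higher, 1 was lower and 7 missed the threshold (median 0.35). Cers2, the ceramide synthase of very long acyl chains, read -2.19, -1.88 and -1.73 in CUS adipocytes, against -3.53, -3.17 and -3.03 in control adipocytes. This is a log2 difference of 1.31 (SE 0.12) or 2.48-fold with no overlap. Cers4, another ceramide synthase, was lower by 0.92 on the log2 scale (log2 difference -0.92, SE 0.28, adjusted P = 0.017), Cers5 was higher by 0.49 with no overlap, and Cers6 did not pass (0.05). Lpcat3, which places polyunsaturated chains into phospholipids, was higher by 0.85 with no overlap. The acyltransferase Agpat3 was higher by 0.64 at its brighter probe and by 0.44 at the other (adjusted P = 0.036). The peroxisomal oxidation genes Hsd17b4 (0.48), Acaa1a (0.45 at its brighter probe, 0.04 with adjusted P = 0.85 at the other) and Acaa1b (0.62) were also higher.

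**Figure D4:**
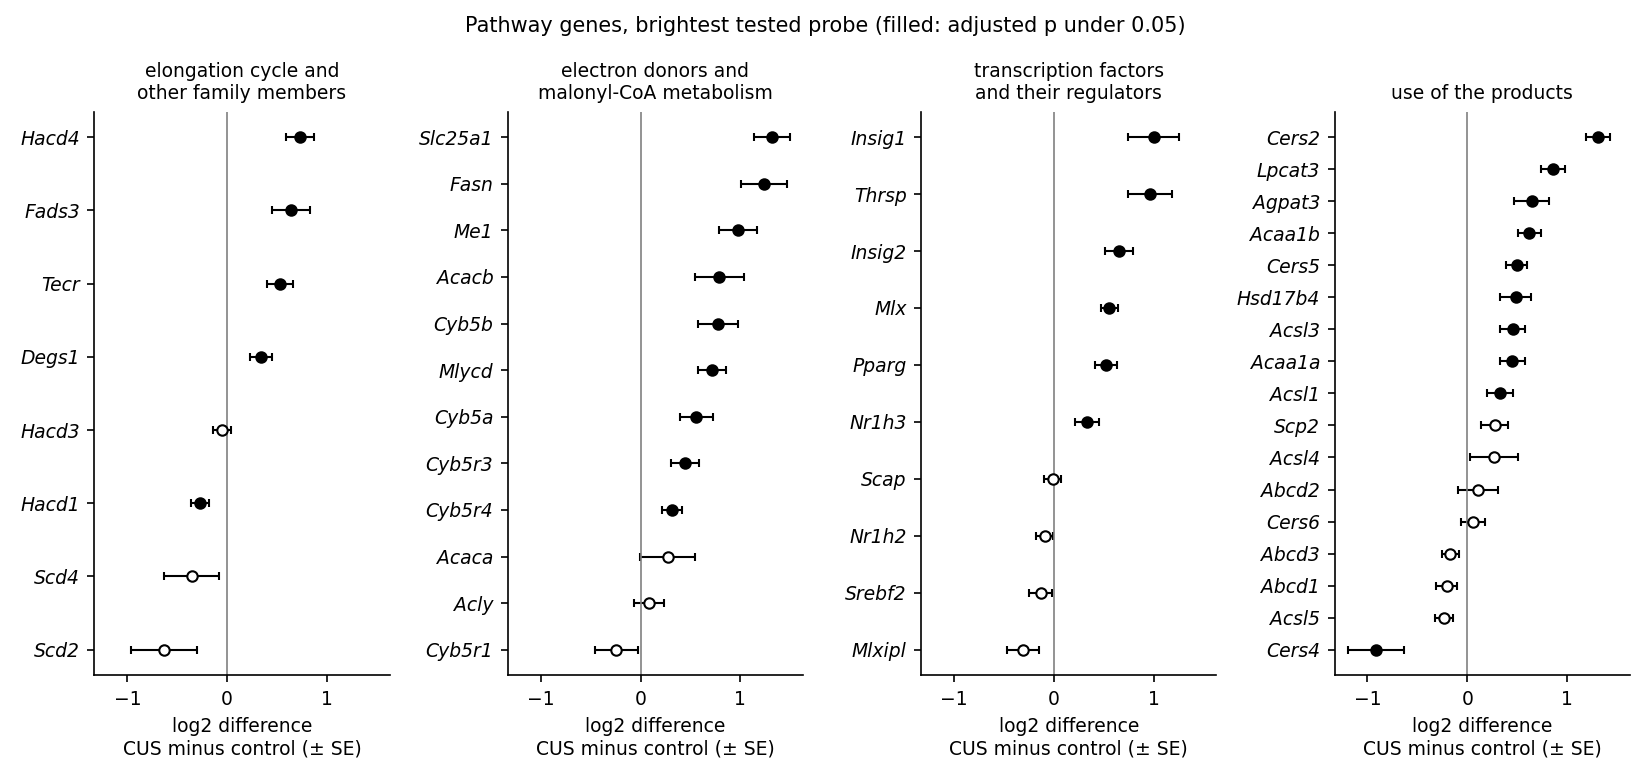
Log2 difference, CUS minus control, with its standard error for tested pathway genes at their brightest probe, in 4 lists (1 gene of the last list is not drawn); filled points passed at an adjusted P under 0.05. The list of electron donors and malonyl-CoA metabolism has 9 of 12 genes filled on the right and 0 on the left, and Cers2, Slc25a1 and Fasn stand furthest right.

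The promoters of the 2 genes of the set that were at least 2-fold higher are shown, and whether these genes share regulation was not tested. They were taken from RefSeq (GRCr8) and cut at the outermost annotated start of the gene, on the strand of the gene. Capitals mark CCAAT, the motif of the factor NF-Y. The Fads1 stretch is chr1:216252442-216252604 (plus strand) and the Hsd17b12 stretch is chr3:100568899-100569148 (minus strand).
Fads1: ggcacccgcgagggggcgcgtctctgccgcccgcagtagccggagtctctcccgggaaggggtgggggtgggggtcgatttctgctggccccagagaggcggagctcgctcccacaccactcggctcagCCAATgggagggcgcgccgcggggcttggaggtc
Hsd17b12: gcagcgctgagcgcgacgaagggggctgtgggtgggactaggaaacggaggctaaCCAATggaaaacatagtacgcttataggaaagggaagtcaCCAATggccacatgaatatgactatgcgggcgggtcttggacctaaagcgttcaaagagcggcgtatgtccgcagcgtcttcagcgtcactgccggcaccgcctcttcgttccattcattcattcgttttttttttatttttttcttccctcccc
In the 300-base windows around the gene start, which matched 9 of the 10 genes (all but Elovl6), CCAAT on either strand was found in 4 of 9, Elovl4, Elovl5, Fads1 and Hsd17b12, beside 37.5% of all 33469 promoters of that length. The E-box CACGTG was found in Elovl5 (6.42% of all promoters). The letters TCACNCCAC, a sterol regulatory element, were found in 0 of 9 (1.12% of all), as were the liver X receptor element (0.00598%), the PPAR element (0.0538%) and the palindromic glucocorticoid response element (0.0149%). Both strands were searched, the PPAR and liver X receptor elements share the letters AGGTCA, and a match is a description of the letters only.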

How the data were processed

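Total RNA of epididymal adipocytes from 6 CUS and 6 control rats was measured on 1-colour Agilent rat arrays, each taken as 1 rat. The labels' source field names adipocytes, whereas their extraction text names preadipocytes, and the study's methods name an exon array although the array files are those of a gene expression design. The authors deposited spot intensities from Agilent Feature Extraction (10.7.3.1), with background already subtracted and no normalization between arrays, and positions on rat build rn4. A quantile normalized table of intensities on a linear scale, also deposited, served as an alternative.

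Intensities were taken as log2 and each array's 75th percentile was subtracted. Control spots and outlier spots were left out and the spots of a probe were averaged. Probes entered the test when 6 or more of the 12 arrays read them well above background (19721 probes). CUS and control arrays were compared by limma (3.58.1, under R 4.3.3; lmFit, eBayes, Benjamini-Hochberg over all tested probes), and 2 probes of a gene by the same fit on their within-array difference. The fits were tested on simulated data. The methods' unpaired t-test, run there in dChip with a fold threshold of 2, was run here on the unadjusted P with that threshold and, separately, after Benjamini-Hochberg without it. Others changed the scaling, background correction, filter, outlier spots, array weights, variance trend and replicate block, or left out each array in turn. The number of arrays limits the precision.

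Probe names came from the files, and pathway genes were matched by accession (17889 probes of the array), symbol (2531) or synonym (668), else by the files' name (9279), through a RefSeq table of build GRCr8. The members and the pathway and marker lists were chosen with earlier results of these data known. All members were named with every probe, and of the pathway lists every tested gene of the elongation cycle, Fasn, Srebf1 and, in each other list, the 3 highest and the 3 lowest differences that passed; the further pathway genes named were chosen after their values were seen. A few genes of these lists enter the counts but are not reported by name here.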

Additional observations from a re-analysis of the deposited data

Results flagged for a closer look

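Of 62 groups of 6 arrays examined for a single array far from the others, 6 had a gap over range above Dixon's critical value of 0.625, where chance gives about 1 in 20. For the dimmer Elovl1 probe, control replicate 6 was lowest at -0.39, with the nearest control at -0.06. For 1 Elovl2 probe, which was not above background, control replicate 6 was highest at -5.28, with the nearest at -6.59. For the Elovl6 probe that crosses an intron, CUS replicate 6 was lowest at -4.62, with the nearest CUS array at -4.08. Among the pathway genes, control replicate 3 was highest for Fads3 at 3.69 (nearest 2.70) and lowest for Scd2 at -3.42 (nearest -1.85), and CUS replicate 1 was lowest for Me1 at 3.28 (nearest 3.76). All values are log2 signals relative to the array's 75th percentile. Control replicate 3 was also the highest control for 4 of the 9 tested probes of the elongases and desaturases (Fads1, Hsd17b12, Elovl5 and Scd1) and the lowest for 2 (both Elovl6 probes). CUS replicate 1 was the lowest CUS array for 5 of the 9.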

How the results depend on the processing

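Hsd17b12 (log2 difference 1.15 to 2.34), Fads1 (0.86 to 2.08) and the dimmer Elovl1 probe (0.42 to 1.34) passed under all 24 alternatives run for each. The number of tested member probes higher in CUS was 8 with spike-ins, 9 with no scaling, 3 with normexp and 2 by the methods' t-test at 2-fold and unadjusted P, and 4 to 5 with 1 array left out. The number lower was 2 with normexp, 3 with no filter on dim probes (of 13, all at background in CUS arrays), 1 with array weights and 1 with the replicate block (both Fads2, the block at -0.32, adjusted P = 0.046), and 0 to 1 with 1 array left out (Fads2 without control replicate 3 or 6). Over all tested probes, 12995 were higher with spike-ins, 13387 with no scaling and 670 by the methods' t-test (4238 to 5848 with 1 array left out, 4872 in the report's setting). Lower were 467, 732 and 1686 under those settings, 8841 with normexp and 12857 with no filter, the last of 30352 probes in place of 19721 (4343 to 5900 with 1 array left out, 5000 in the report's setting). Of the pathway genes, 44 were higher with spike-ins, 44 with no scaling and 3 by the methods' t-test (26 to 30 with 1 array left out). Lower were 0, 0 and 0 under those settings, 4 with quantile normalization, 4 with the authors' table, 6 with normexp, 4 with array weights, 4 with the replicate block and 2 to 4 with 1 array left out (4 without control replicate 3).

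Both probe pairs passed with any 1 array left out (2 to 2), 1 with normexp and 1 with the strict filter, where only 1 pair was tested. The sign turned for the brighter Elovl6 probe with normexp (-0.063), the dimmer Elovl6 probe with normexp (-0.31, adjusted P = 0.0025; the offset of 50 exceeds its intensities), Fads2 with quantile normalization (0.029), spike-ins (0.53) and no scaling (0.46), the brighter Elovl1 probe with spike-ins (0.80), no scaling (0.73) and normexp (0.050), and Scd1 without control replicate 2 (-0.015; up to 0.34 without control replicate 3). The cause was not tested except where stated. Of 215 comparisons of a probe with an alternative, 193 kept direction and side of the threshold. The replicate numbers gave no clear sign of pairing rats, as deviations of same-numbered arrays correlated at -0.19 to 0.43 and 2 of 6 matched best with their own number. These values cannot settle whether the numbers pair rats. For Elovl2, Elovl4 and Elovl7, signal at background limits any comparison.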
